A study of Mus musculus with 148 samples.

Results

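T cells and natural killer (NK) cells inside breast cancer lung metastases (the metastasis core) were compared with those of the ring of tissue around the lesions (the invasive margin), gene by gene and within the same mice. The cells were those whose deposited annotation begins with T_ or NK_, on plates with the status MET Core or MET Invasive margin. In the 6 mice with both tissues these were 1833 cells of 24020 annotated cells in the series, 1147 from 11 core plates and 686 from 10 margin plates of 148 plates in all. The question was which genes the lymphocytes of a lesion expressed at a different level from the lymphocytes at its edge.

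All mice with core or margin plates were C57/b6 PA-GFP females, which carry a photoactivatable green fluorescent protein. At 8 weeks of age they received EO771-tdTomato cells, a mouse mammary carcinoma line, in the right inguinal mammary gland. The tumors were resected after 3 weeks and the lungs were taken shortly after a metastasis was seen by weekly CT. Core or margin was lit under a two-photon microscope, and CD31neg cells that had become green were sorted, so the tissue of a cell is the region that was lit. Both groups come from 1 cell line in 1 strain, with no treatment. Not every mouse gave both tissues, and there were cores from 13 mice and margins from 7. Mouse 17 stood apart in its labels. Its core plates were also gated on CD45, and its 3 margin plates carry the photoactivation target NON-MET in place of ADJ, so each count of called genes, and many of the fold changes and list medians, are also given without it.

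T cells recognize antigen through the T cell receptor with its CD3 chains, and the co-receptors CD4 and CD8 divide them into helper and cytotoxic lineages. Naive and central memory cells express Ccr7, Lef1, Tcf7 and Il7r, which guide them through lymph nodes and keep them alive, whereas cells that meet antigen switch to granule proteins, chemokines such as Ccl3 and Ccl4, and inhibitory receptors such as Pdcd1 and Lag3. NK cells kill without a rearranged receptor and read a balance of activating receptors (Ncr1, Klrk1, Klrb1c) and inhibitory Ly49 and NKG2 receptors. The authors named the deposited subpopulations by such states, with CD4 Lef1 as naive CD4 cells and CD8 Dapl1 as naive CD8 cells. CD8 Gzmk and CD8 Gzma are activated CD8 states, CD8 Lag3 is a dysfunctional one, and Treg stands for regulatory T cells.

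At least 10 cells in both tissues were found in 5 mice for T cells (17, 26, 28, 31 and 36), in 4 for NK cells (17, 28, 31 and 36) and in 6 for both lineages summed. T cell sums ranged from 40 to 337 cells and 34395 to 826670 UMIs in cores, and from 20 to 176 cells and 14113 to 308525 UMIs in margins. NK cell sums ranged from 28 to 96 cells in cores and from 26 to 116 in margins, with at least 21375 UMIs. T cells held a median of 677 to 1765 UMIs per cell in cores and 623 to 1520 in margins. The 10 T cell markers summed to between 2834 and 7169 UMIs per 1000000 UMIs of the sum (CPM) in T cells and to at most 1579 in NK cells. The 8 NK cell markers reached between 5089 and 10308 CPM in NK cells and at most 1339 in T cells. The authors made these labels from the same counts with marker genes, so the sums are a description and no separate check. Core and margin of a mouse had been sequenced in the same batch in every pair. No plate held both tissues, and the wells of a plate were pooled for the library, so plate and tissue cannot be told apart.

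In T cells, 3 of 1859 genes tested (0.161%) passed an adjusted p of 0.05 in edgeR's quasi-likelihood test with mouse as a block. Ccl4, a chemokine that attracts monocytes and T cells, and Cd8a, the CD8 co-receptor chain, were higher in the core, and S100a8, an alarmin made mainly by neutrophils, was lower in it. In all, 87 genes (4.68%) had an unadjusted p under 0.05. Chance alone passes about 1 gene in 20 at this cut, here and in the counts below. DESeq2 also called 3 genes, Cd8a, S100a8 and Dapl1. Without mouse 17, the 3 genes called were Ccl4, Cd8a and Ccl3, and S100a8 no longer passed the filter on low counts. Without mouse 26, 0 genes were called by edgeR, with 139 at an unadjusted p under 0.05, and without mouse 36 there were 5 (Cd8a, Ctla2a, Gzmb, Isg20 and S100a8). With no block for mouse, 0 genes were called, with 25 at an unadjusted p under 0.05.

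Ccl4 (chr11:83662584-83664683, plus strand, protein coding) stood at 368, 1483, 1631, 1827 and 2616 CPM in the cores of mice 17, 26, 28, 31 and 36. In the margins of the same mice it stood at 395, 0, 444, 652 and 440 CPM. The other 4 mice had core levels above every margin level, and mouse 17 had nearly equal levels in both tissues. The 0 in the margin of mouse 26 is 0 of 14113 UMIs, which allows up to 212.6 CPM. The log2 fold change, core minus margin, was 1.64 ± 0.34 (SE, n = 5 mice, edgeR adjusted p = 0.0376), and it was 2.31 without mouse 17. The call was lost without mouse 26 (edgeR adjusted p = 0.339), without mouse 36 (edgeR adjusted p = 0.261), with RLE size factors (edgeR adjusted p = 0.0684), with sums thinned to equal depth (edgeR adjusted p = 0.0781), with cells of at least 1000 UMIs in 3 mice (edgeR adjusted p = 0.999) and with DESeq2 (adjusted p = 0.76). The log2 fold change under these 6 settings ran from 1.29 to 2.00.

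Cd8a (chr6:71373427-71379173, plus strand, protein coding) was higher in the core in 5 of 5 mice. Its core levels were 1470, 988.5, 567, 806 and 903 CPM in mice 17, 26, 28, 31 and 36, and its margin levels were 901, 142, 213, 249 and 488 CPM. The 2 ranges overlapped only through mouse 17, whose margin lay above the cores of mice 28 and 31. The margin value of mouse 26 rests on 2 UMIs, with an exact 95% binomial interval from 17.2 to 512 CPM that covers counting error only. The log2 fold change of Cd8a was 1.17 ± 0.24 (SE, n = 5 mice, edgeR adjusted p = 0.0376). The call held without mouse 17, at 1.45 (edgeR adjusted p = 0.0384), and was lost without mouse 26 (edgeR adjusted p = 0.339), without mouse 31 (0.0695), with RLE size factors (0.0684), with equal depth (0.0781) and with cells of at least 1000 UMIs (0.999), and it held with DESeq2 (0.0407). Under these 5 settings where the call was lost, the log2 fold change ran from 1.05 to 1.28. Losses with other sets of cells or samples, some at lower values, are given below. Cd8b1, the partner chain of the CD8 heterodimer, had a log2 fold change of 0.16 ± 0.22 and was higher in the core in 3 of 5 mice (adjusted p = 0.999).

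S100a8 (chr3:90668978-90670035, plus strand, protein coding) was lower in the core in 5 of 5 mice. It stood at 1505, 494, 70.0, 35.8 and 9.18 CPM in the cores of mice 17, 26, 28, 31 and 36 and at 2376, 2267, 870, 93.2 and 39.7 CPM in the margins. The spread between mice exceeded the difference between tissues, and the groups overlapped over most of their range. The values of mice 31 and 36 rest on 2 to 10 UMIs each. The log2 fold change was -1.79 ± 0.34 (SE, n = 5 mice, edgeR adjusted p = 0.0305), and the call was lost without mouse 26 (edgeR adjusted p = 0.346), with equal depth (0.0781) and with cells of at least 1000 UMIs (0.999), and held with RLE size factors (0.0361) and DESeq2 (0.00412). In these 3 losses the log2 fold change ran from -1.71 to -1.52.

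**Figure D1:**
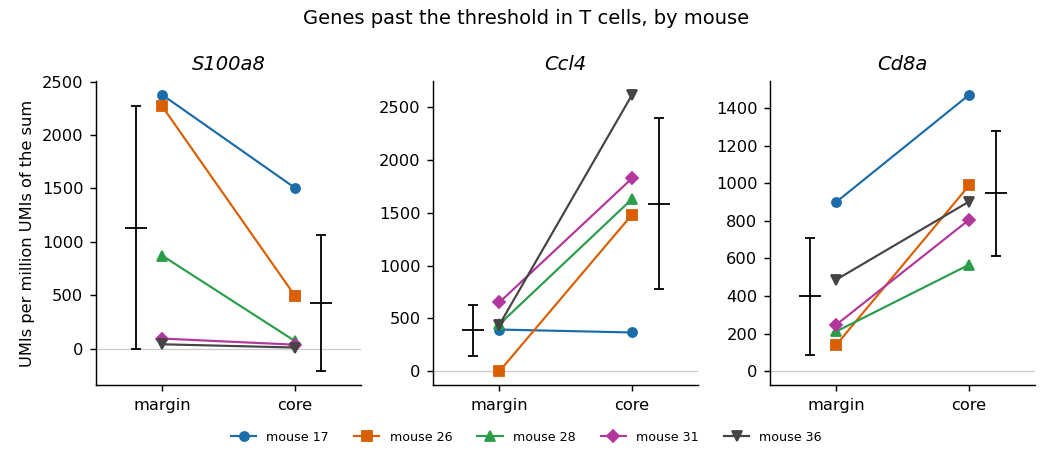
S100a8, Ccl4 and Cd8a in T cells of 5 mice, in UMIs per 1000000 UMIs of each sum (vertical axis, linear), in margin and core. Lines join the 2 tissues of a mouse, and black marks beside them give the mean ± SD of each tissue. All S100a8 lines fall and all Cd8a lines rise toward the core, and Ccl4 rises in every mouse but mouse 17.

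Neutrophils were more frequent on the margin plates than on the core plates of the same mice. Their share of annotated cells was 36.1, 43.9, 10.1, 7.74 and 8.81% in the margins of mice 17, 26, 28, 31 and 36, and 25.8, 10.4, 3.71, 1.14 and 3.43% in the cores. S100a8 took 35123 to 259240 CPM in margin neutrophils. In all cells of the same plates other than neutrophils, T and NK cells, S100a8 was also lower in the core in 4 of 5 mice, at 373 against 11521 CPM in mouse 26 and 3012 against 7195 CPM in mouse 17. The 9 neutrophil markers together summed to 61.2 to 2269 CPM in core T cells and 83.3 to 3825 CPM in margin T cells, lower in the core in 5 of 5 mice, and none was at 0 in all samples. The part of neutrophil RNA in the S100a8 difference was not tested.

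Some T cell subpopulations made up different shares of the T cells in core and margin. CD8 cells made up 58.8, 60.0, 69.2, 74.6 and 58.1% of T cells in the cores of mice 17, 26, 28, 31 and 36, and 58.4, 45.0, 52.6, 65.2 and 46.0% in the margins. CD8 Lag3 cells, an exhausted-like state, made up 8.31, 22.5, 6.84, 47.9 and 19.9% of T cells in the cores and 1.73, 5.00, 5.26, 15.2 and 9.09% in the margins. CD4 Lef1 cells made up 11.3 to 29.6% in cores and 23.9 to 35.0% in margins. The CD8 and CD8 Lag3 shares were higher, and the CD4 Lef1 share lower, in the core in 5 of the 5 mice of the test. In mouse 32, outside this set with 6 T cells in the margin, the order was the opposite, with 7.41% CD8 Lag3, 66.7% CD8 and 29.6% CD4 Lef1 cells in the core and 33.3, 83.3 and 16.7% in the margin. The margin of mouse 33 (30 T cells) held 30.0% CD8 Lag3, 86.7% CD8 and 10.0% CD4 Lef1 cells, outside the range of the 5 margins for each share. In the 5 mice of the test, the other shares moved both ways. CD8 Gzmk was higher in the core in 1 of 5, Treg in 3, and CD4 S100a4, CD8 Dapl1 and CD8 Gzma each in 2. These shares rest on as few as 20 T cells a sample and are given as a description. In the authors' paired test, Treg were enriched in the core, and CD8 Lag3 and the other T cell populations were not.

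**Figure D2:**
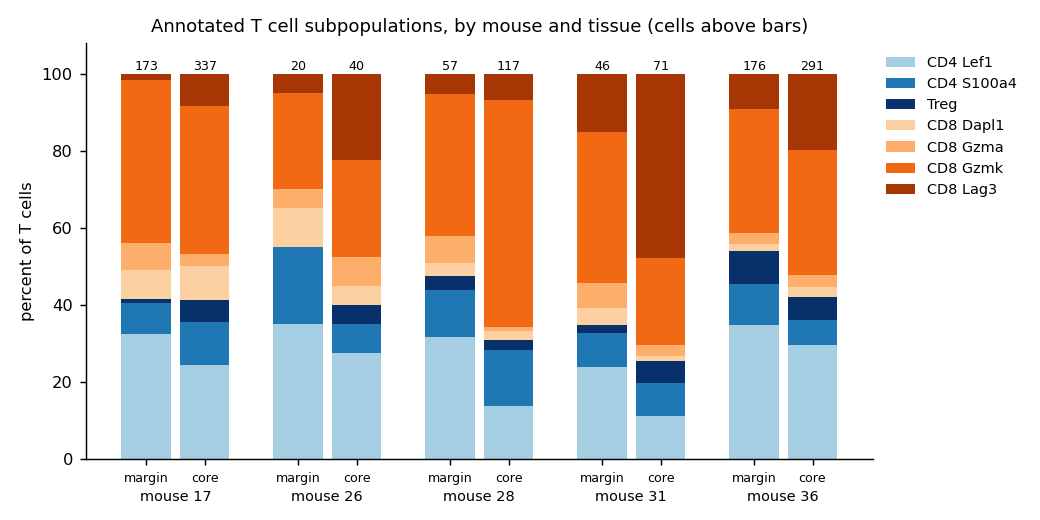
Percentage of T cells in each annotated subpopulation (vertical axis), in the margin and the core of each of 5 mice, with the number of T cells above each bar. The darkest orange block, CD8 Lag3, is taller in the core of every mouse, and the light blue block, CD4 Lef1, is shorter.

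Ccl4 was concentrated in those CD8 Lag3 cells. With the cells of the 5 mice pooled, Ccl4 took 5775 CPM in CD8 Lag3 cells of the core and 3488 CPM in those of the margin, against 293 and 145 CPM in CD8 Gzmk cells, 282 and 98.1 CPM in CD4 Lef1 cells, 97.9 and 35.2 CPM in CD4 S100a4 cells and 62.8 and 37.5 CPM in Treg. In CD8 Gzma cells, 25 in each tissue, it was lower in the core, at 206 against 800.1 CPM. In CD8 Dapl1 cells it took 229 CPM in the core and 0 of 37944 UMIs in the margin, which allows up to 79.1 CPM. These pooled values mix mice that differ in level and in cell number, and carry no test. Core CD8 Lag3 cells held 1263 of the 1545 Ccl4 UMIs of all core T cells. Among neutrophils Ccl4 took 32097 CPM in core and 7074 CPM in margin PMN-MDSC, 16208 and 330 CPM in the Ptgs2 state, 1033 and 253 CPM in the Lcn2 state and 387 and 459 CPM in the Ifit3 state. In the Camp state it was at 0 UMIs in both tissues, which allows up to 115 CPM in 3 core and 163 CPM in 14 margin cells. Ccl4 also took 4259 and 1973 CPM in NK Ncr1 cells, 2187 and 1077 CPM in Mac Isg20 cells and 1561 and 1494 CPM in Mon Thbs1 cells. It stood at 102 and 84.1 CPM in B cells, and the part of free RNA in the T cell values was not tested. Cd8a took 2103 CPM in core and 1115 CPM in margin CD8 Lag3 cells, and 1536 and 809 CPM in CD8 Gzmk cells. It stood at 2511 and 1977 CPM in CD8 Dapl1 cells and at 463 and 278 CPM in CD8 Gzma cells. Cells annotated as CD4 Lef1 also held Cd8a, at 342 and 316 CPM, against 65.2 and 17.6 CPM in CD4 S100a4 cells. In Treg it took 41.9 CPM in the core and 0 of 26646 UMIs in the margin, which allows up to 113 CPM. When each T cell subpopulation entered with equal cell numbers in core and margin, the log2 fold change of Ccl4 was 0.63 ± 0.35 (edgeR adjusted p = 0.994) and that of Cd8a 0.90 ± 0.27 (edgeR adjusted p = 0.631). The equal numbers came from a single random draw down to the tissue with fewer cells. CD8 Lag3 cells numbered 137 in the cores and 30 in the margins, so most core cells of this state were left out. Without CD8 Lag3 cells Ccl4 was at 0.92 ± 0.45 and Cd8a at 0.74 ± 0.26, neither of which passed the threshold. S100a8 was at -1.51 ± 0.35 with equal cell numbers (edgeR adjusted p = 0.244) and still passed without CD8 Lag3 cells, at -1.69 ± 0.32 (edgeR adjusted p = 0.00683). Among CD8 cells alone, in 4 mice, Cd8a was at 0.99 ± 0.26 and Ccl4 at 1.28 ± 0.35, again past no threshold.

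The same genes were read in T cells outside the pairs, as a description. Distal normal tissue and control lungs were sorted as CD31neg CD45 cells without photoactivation, so gate and tissue cannot be told apart there. The control lungs came from mice without a tumor. Ccl4 ranged from 52.6 to 2681 CPM (median 1068) in the 8 other cores and stood at 1025 CPM in the margin of mouse 33, the other margin with enough cells. In distal normal tissue of 13 tumor-bearing mice, Ccl4 had a median of 42.0 CPM and a range from 0 to 1308 CPM, and in 3 control lungs it ranged from 48.8 to 334 CPM. Cd8a ranged from 191 to 1022 CPM in the other cores, from 46.3 to 636 CPM in distal normal tissue and from 682 to 784 CPM in control lungs, so that core levels overlapped those of healthy lungs. S100a8 was at 0 UMIs in the margin of mouse 33, which allows up to 146 CPM. It had a median of 436 CPM in distal normal tissue, 187 CPM in control lungs and 164 CPM in the other cores. With all cores and margins and no block, none of these genes passed the threshold, at log2 fold changes of 1.46 ± 0.48 for Ccl4, 0.49 ± 0.38 for Cd8a and -1.51 ± 0.74 for S100a8 (edgeR adjusted p = 0.998 for each).

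**Figure D3:**
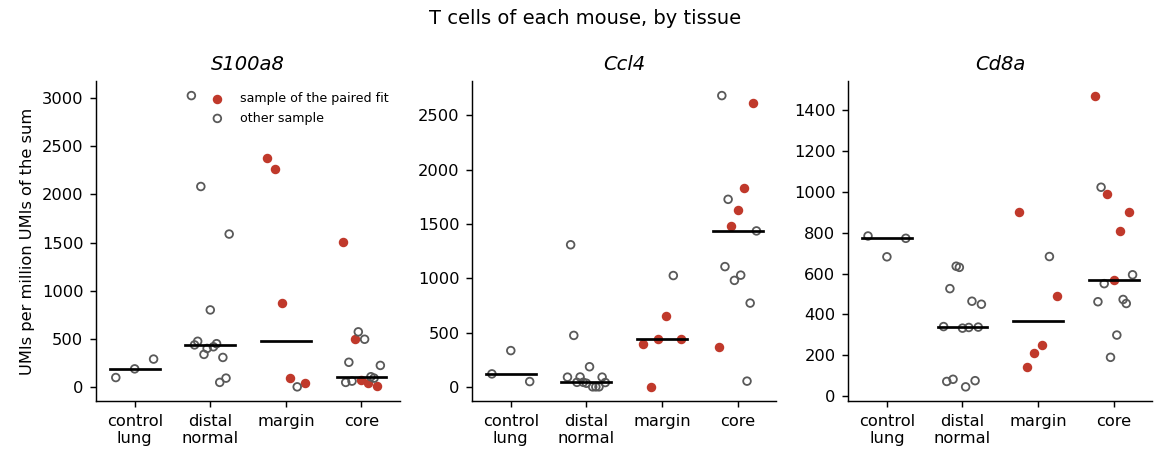
S100a8, Ccl4 and Cd8a in T cells by tissue, in UMIs per 1000000 UMIs of each sum (vertical axis, linear), each point 1 mouse with at least 10 T cells. Filled red points are the samples of the paired comparison, open points all other samples, and bars the medians. Ccl4 has a median of 1436 CPM over all 13 cores, above the medians of the other tissues.

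Below the threshold, the 5 T cell genes with the smallest unadjusted p among those that moved the same way in all 5 mice were Dapl1, Ostf1, Klrd1, Arl6ip1 and Lef1. Dapl1, a gene of naive-like T cells, stood at 52.0, 116, 42.0, 35.8 and 42.8 CPM in the cores of mice 17, 26, 28, 31 and 36 and at 220, 213, 213, 62.1 and 187 CPM in the margins. Only mouse 26 had a core level above the lowest margin level. The log2 fold change of Dapl1 was -1.91 ± 0.43 (edgeR adjusted p = 0.0735), and mouse 31 contributed 2 UMIs in each tissue. Lef1, a transcription factor of naive T cells, was at -1.39 ± 0.43 (adjusted p = 0.589). Klrd1, the CD94 chain of NKG2 receptors, was at 1.13 ± 0.35, Ostf1, a signaling adaptor, at 0.83 ± 0.25, and Arl6ip1, an endoplasmic reticulum protein, at 0.82 ± 0.25 (edgeR adjusted p = 0.589 for each of the 3). Without mouse 17, Lef1 was at -1.49 ± 0.53, Klrd1 at 1.26 ± 0.45, Ostf1 at 0.91 ± 0.30 and Arl6ip1 at 1.05 ± 0.32, and Dapl1 did not pass the filter. Pdcd1, which encodes PD-1, was chosen after its values were seen and stood at 1.48 ± 0.38, higher in the core in 4 of 5 mice (adjusted p = 0.262).

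The 13 gene lists were read beside all 1859 T cell genes, whose median log2 fold change was 0.01, of which 4.41% were higher and 4.25% lower in the core in every mouse. Of the receptor and co-receptor genes, all 16 passed the filter on low counts and 1, Cd8a, was called, with a list median of 0.22. Cd3g was at 0.49 ± 0.21 and Cd3d at 0.35 ± 0.21, and Cd3d, Cd3e and Cd8a were higher in every mouse. Of the naive and central memory genes, 9 of 14 passed the filter, none was called, and 6, among them Lef1, Tcf7, Il7r, Klf2 and Dapl1, were lower in the core in every mouse, with a median of -0.54. Il7r, the interleukin-7 receptor, was at -0.70 ± 0.27, Klf2, which drives exit from tissue, at -0.52 ± 0.29 and Tcf7 at -0.54 ± 0.35.

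Cytotoxic granule genes mostly had log2 fold changes above 0. Of the cytotoxic granule genes, 11 of 14 passed the filter, 10 had a log2 fold change above 0 and none was called, with a median of 0.67. Nkg7, a granule membrane protein, was at 0.52 ± 0.17, Srgn, the granule proteoglycan, at 0.13 ± 0.22, perforin (Prf1) at 0.80 ± 0.42 and granzyme B (Gzmb) at 0.88 ± 0.31. Prf1, Nkg7 and Fasl were higher in every mouse. Of the effector cytokines and chemokines, 5 of 12 passed the filter, 3 lay above 0, none was higher in every mouse and Ccl4 was called, with a median of 1.07. Ccl3 was at 1.77 ± 0.53 and Xcl1 at 1.07 ± 0.39, while Ccl5 was at -0.03 ± 0.19.

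Of the checkpoint and costimulatory receptors, 7 of 16 passed the filter, all 7 had a log2 fold change above 0 and none was called (median 0.39). Tnfrsf9, which encodes 4-1BB, was at 0.82 ± 0.32 and higher in every mouse, and Tnfrsf18 was at 0.39 ± 0.26. Of the regulatory T cell genes 6 of 12 passed, with a median of 0.23 and Il2rb at 0.24 ± 0.29, and Foxp3 did not pass the filter. Of the NK receptor genes 7 of 20 passed in T cells, with a median of 0.24, Klrd1 and Klrk1 higher in every mouse and Tyrobp at -0.58 ± 0.34. Of the trafficking genes 14 of 20 passed, with a median of 0.04. Among them Ly6c2 was at 0.20 ± 0.22, S100a6 at -0.07 ± 0.23, and Ccr2 was lower in every mouse.

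Interferon and metabolic genes had small positive medians in T cells. Of the type I interferon response genes, 21 of 32 passed the filter and 17 lay above 0, with a median of 0.24 and none called. Ifi27l2a was at 0.21 ± 0.30, Ly6a at 0.44 ± 0.27, and Parp14 was higher in every mouse. Of the MHC class I and interferon-gamma genes, 18 of 24 passed and 14 lay above 0, with a median of 0.25. B2m was at 0.23 ± 0.16 and H2-D1 at 0.23 ± 0.18, while Gbp2 and Psmb9 were higher in every mouse. Of the glycolysis and hypoxia genes, 8 of 21 passed, 7 lay above 0 and the median was 0.30, with Aldoa at 0.72 ± 0.26 and Ldha at 0.46 ± 0.19, both higher in every mouse. The immediate early and stress genes (14 of 20 passed) and the cell cycle genes (7 of 18) had medians of 0.08 and 0.01, with Junb at -0.22 ± 0.20, Fos at 0.50 ± 0.29, Tubb5 at -0.08 ± 0.24 and Tuba1b at 0.37 ± 0.39. Without mouse 17, Ifi27l2a was at -0.04 ± 0.36, Ly6a at 0.04 ± 0.26 and Ly6c2 at -0.05 ± 0.22, while Ccl5 was at 0.25 ± 0.21, Il2rb at 0.70 ± 0.34 and Srgn at 0.29 ± 0.27. Tnfrsf18 was then at 0.14 ± 0.30, S100a6 at -0.27 ± 0.26 and Tubb5 at -0.02 ± 0.30. Without this mouse the median of the type I interferon list was -0.02 (10 genes passed the filter, 5 above 0) and that of the checkpoint list 0.06 (4 genes), beside 0.02 over all genes. The naive list was then at -0.77 (6 genes), the cytotoxic list at 0.54 (7 genes), the effector list at 1.85 (5 genes) and the NK receptor list at 0.81 (6 genes), and the other 7 lists lay between 0.07 and 0.36. Within these lists 2 genes in all passed the threshold, Cd8a and Ccl4. As given above, the CD8 Lag3 share was higher and the CD4 Lef1 share lower in the core in every mouse of the test. The part of these shares in the list medians was not tested.

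Markers of other cells in the T cell sums also differed between tissues. The 10 dendritic cell and MHC class II markers summed to 555 to 959 CPM in cores and 213 to 616 CPM in margins, higher in the core in 5 of 5 mice, with Flt3 at 0. The 16 lung epithelial and stromal markers summed to 0 to 167 CPM in cores and 19.8 to 301 CPM in margins, lower in the core in 5 of 5 mice, with Cldn5 at 0. Monocyte and macrophage markers (412 to 1417 against 124 to 1446 CPM, Ear2 at 0), B cell markers (145 to 878 against 217 to 1063 CPM) and erythroid markers (0 to 526.2 against 0 to 476 CPM, Hbb-b1 and Hbb-b2 at 0) overlapped. Within mice they were higher in the core in 4, 1 and 2 of 5 mice, in that order. Tumor cell markers summed to at most 8.47 CPM, with Krt18, Krt19, Cldn4 and Cldn7 at 0. The part of these cells in the T cell results was not tested. Mitochondrial UMIs, a measure of RNA quality, made up 2.61, 2.23, 3.23, 2.04 and 3.14% of T cell UMIs in the cores of mice 17, 26, 28, 31 and 36 and 3.09, 3.20, 3.46, 2.65 and 3.29% in the margins, lower in the core in 5 of 5 mice. In NK cells this share was lower in the core in 3 of 4 mice and higher in mouse 36, at 2.67 against 2.07%. The part of this difference in the gene results was not tested.

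**Figure D4:**
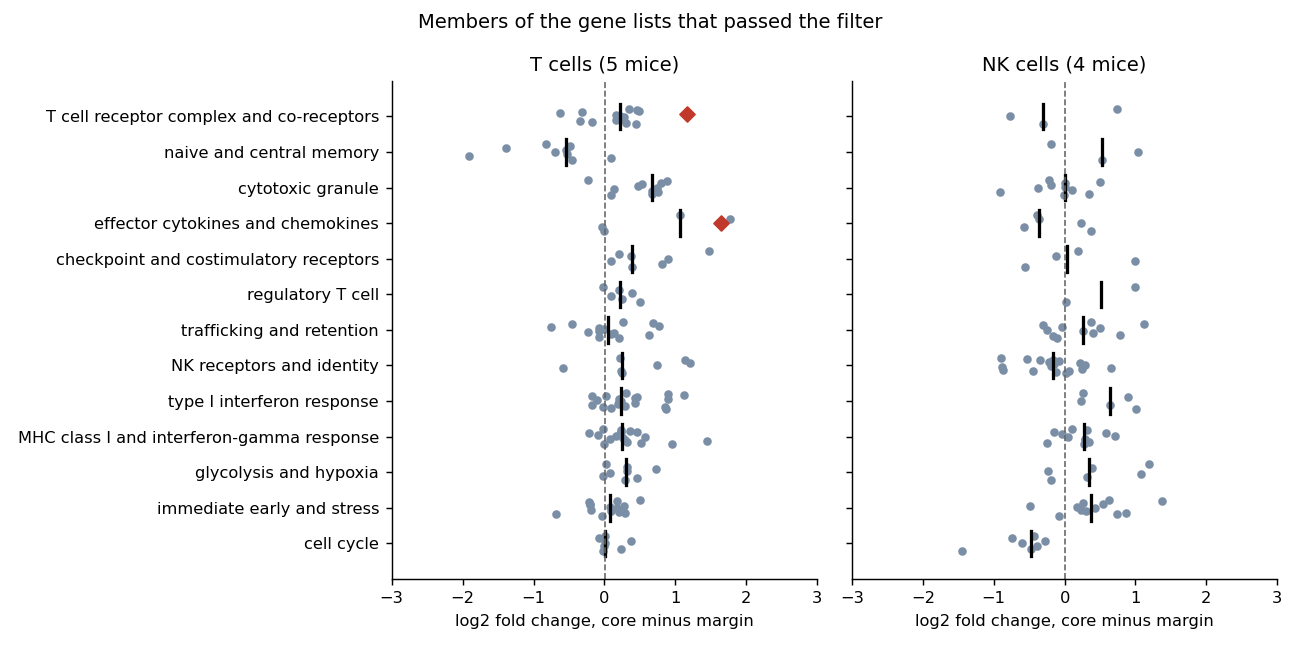
Log2 fold change, core minus margin, of each list member that passed the filter on low counts, in T cells (left, 5 mice) and NK cells (right, 4 mice). Points are genes, red diamonds genes called at an adjusted p under 0.05, black bars list medians and dashed lines the median of all genes tested. In T cells all but 1 of the naive and central memory genes lie left of 0 and 10 of 11 cytotoxic granule genes lie right of it, and Cd8a and Ccl4 are the genes called.

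In NK cells, 0 of 1062 genes (0%) passed the threshold in edgeR, with 54 (5.08%) at an unadjusted p under 0.05. DESeq2 also called 0, with 33 at an unadjusted p under 0.05. Without mouse 17, edgeR again called 0 genes, with 40 at an unadjusted p under 0.05. Without mouse 31 it called 1, Ly6a, the interferon-induced Sca-1 antigen, which did not pass the filter on low counts in all 4 mice. Ly6a stood at 241, 958, 140 and 621 CPM in the cores of mice 17, 28, 31 and 36 and at 64.7, 0, 44.5 and 23.0 CPM in the margins, where it rests on 0 to 15 UMIs. The 5 genes with the smallest unadjusted p that moved the same way in all 4 mice were AU020206, Pld3, Ncr1, Btg2 and Tspan13 (edgeR adjusted p = 0.501 for each).

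Ncr1, the activating receptor NKp46 that defines NK cells, stood at 498, 458, 608 and 661 CPM in the cores of mice 17, 28, 31 and 36 and at 974, 975, 1067 and 1102 CPM in the margins. Its log2 fold change was -0.90 ± 0.26 (SE, n = 4 mice). The 2 groups did not overlap, but the genes named here were picked for moving the same way in every mouse. The share of all genes without overlap was not counted. Of all NK cell genes tested, 6.4% were lower and 7.91% higher in the core in every mouse. Pld3, a lysosomal nuclease, stood at 212, 319, 281 and 391.5 CPM in cores and 51.7, 46.4, 178 and 68.9 CPM in margins, without overlap, at 1.95 ± 0.55. The margin values of Pld3 rest on 1 to 12 UMIs, and mouse 31 contributed 6 and 4, so its direction there is within counting error.

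Btg2, an antiproliferative immediate early gene, was at 902, 833, 1029 and 1768 CPM in cores and 534, 371.5, 800.5 and 780.5 CPM in margins, at 0.87 ± 0.26. Tspan13, a tetraspanin, was at 552, 291.5, 140 and 418.5 CPM in cores and 116, 92.9, 44.5 and 252.5 CPM in margins, at 1.60 ± 0.48. Mouse 31 contributed 3 UMIs of Tspan13 in the core and 1 in the margin, and 22 and 18 of Btg2, so its direction is within counting error for both. AU020206, a long noncoding RNA, was at 680, 111, 187 and 607.5 CPM in cores and 228, 0, 133 and 68.9 CPM in margins, at 1.91 ± 0.50. Mouse 31 contributed 4 and 3 UMIs of AU020206, and the margin of mouse 28 held 0 of 21536 UMIs, which allows up to 139 CPM, so the direction in both mice is within counting error.

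**Figure D5:**
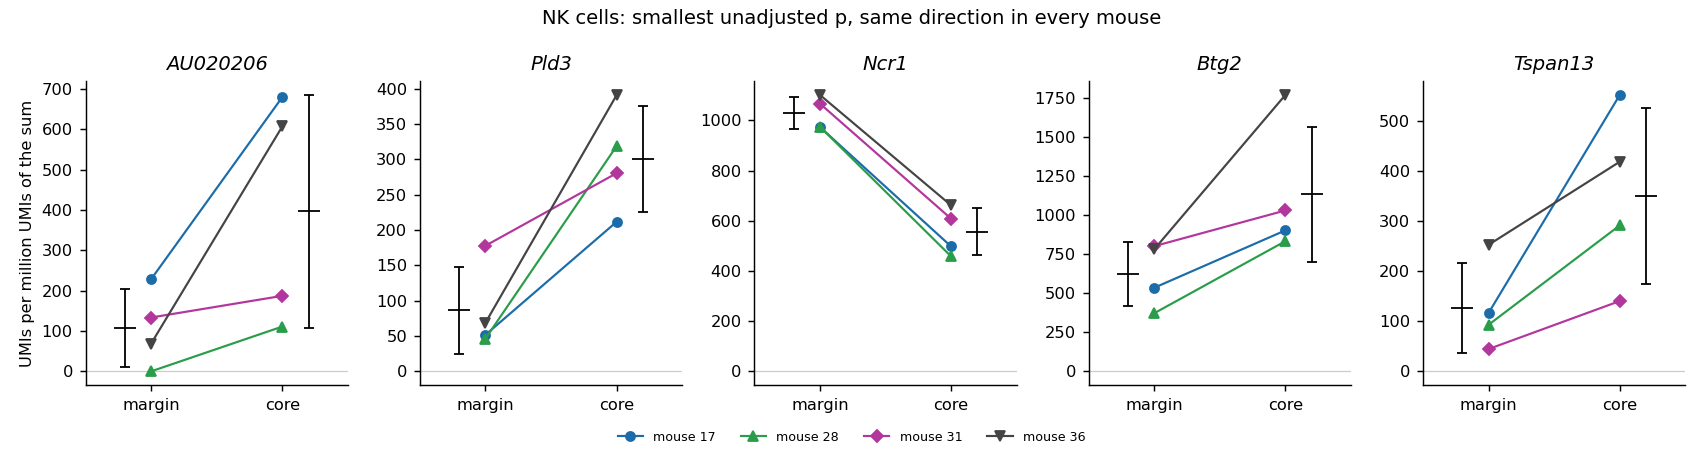
AU020206, Pld3, Ncr1, Btg2 and Tspan13 in NK cells of 4 mice, in UMIs per 1000000 UMIs of each sum (vertical axis, linear), in margin and core. Lines join the 2 tissues of a mouse and black marks give the mean ± SD. Ncr1 is lower and the other genes are higher in the core in every mouse, though mouse 31 rests on few UMIs for each of these 4 and the margin of mouse 28 on 0 UMIs of AU020206, and none passes the adjusted threshold.

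Read by lists, NK cells showed no called gene in any of the 13, beside a median log2 fold change of 0.00 over all genes. Of the NK receptor and identity genes, 18 of 20 passed the filter and 6 lay above 0, with a median of -0.16. The signaling adaptors Tyrobp and Fcer1g were at -0.45 ± 0.25 and -0.13 ± 0.29, Klrb1c at -0.53 ± 0.27, and Eomes, the NK transcription factor, at -0.87 ± 0.52. Klrk1, which encodes NKG2D, was at 0.66 ± 0.24 and higher in every mouse. The summed NK markers were lower in the core in 4 of 4 mice (5089 to 6712 CPM against 6315 to 10308 CPM). NK Xcl1 cells made up 10.4 to 39.3% of NK cells in cores and 4.31 to 13.8% in margins, higher in the core in 3 of 4 mice, and their part in these values was not tested.

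Of the cytotoxic granule genes 10 of 14 passed in NK cells, with a median of 0.00, Gzma at -0.22 ± 0.25 and Nkg7 at -0.18 ± 0.22. Nkg7 and Fasl were lower and Serpinb9 was higher in every mouse. The chemokines Ccl5 and Ccl4 were at -0.58 ± 0.29 and 0.24 ± 0.33, in a list of 5 genes of 12 with a median of -0.36. The immediate early and stress genes had 12 of 20 past the filter, 10 above 0 and a median of 0.37. Fos, Jun, Dusp2 and Btg2 were higher in every mouse, Ier2 was lower in every mouse, and Junb was at 0.26 ± 0.28. Cell cycle genes lay below 0 in 7 of 7, with a median of -0.48, Tubb5 at -0.27 ± 0.38 and H2afz at -0.48 ± 0.43.

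The remaining lists held few NK genes. Of the trafficking genes 11 of 20 passed (median 0.26), with Selplg at 0.41 ± 0.26, Itgb7 at 0.26 ± 0.29, and Cd69 and Cd44 higher in every mouse. Glycolysis and hypoxia genes (6 of 21, median 0.35) held Ldha at 0.32 ± 0.27 and Eno1 at -0.23 ± 0.34. MHC class I and interferon-gamma genes (12 of 24, median 0.28) held B2m at -0.03 ± 0.22 and H2-D1 at 0.31 ± 0.23. All 5 type I interferon genes that passed, of 32, lay above 0 (median 0.64), with Ifi27l2a at 0.90 ± 0.57. The checkpoint list (4 of 16, median 0.04) held Tnfrsf18 at 0.99 ± 0.46 and Tnfrsf9 at -0.11 ± 0.43, and the regulatory T cell list (2 of 12, median 0.51) held Tnfrsf18 and Il2rb, at 0.03 ± 0.24. Klf2 was at 1.04 ± 0.37 in the naive list (3 of 14, median 0.53), and Cd2 at -0.77 ± 0.30 and Lck at -0.31 ± 0.37 in the receptor list (3 of 16, median -0.31). Without mouse 17 the immediate early list was at 0.40 (11 genes) and the NK receptor list at -0.13 (12 genes), while the cell cycle list was at 0.11 (2 genes), the MHC list at 0.07 (6 genes, 3 above 0), the cytotoxic list at -0.13 (10 genes) and the receptor list at -0.88 (2 genes). The effector list was then at -0.25 (5 genes), the naive list at 0.38 (3 genes), the regulatory T cell list at 0.66 (2 genes), the trafficking list at 0.20 (8 genes) and the glycolysis list at 0.45 (4 genes). The checkpoint list kept 1 gene past the filter, Tnfrsf18 at 1.17 ± 0.62, and the type I interferon list kept 1, too few for a median. Ncr1 was then at -0.82 ± 0.32 and Btg2 at 0.98 ± 0.30, Ccl4 was at -0.25 ± 0.30, Tubb5 at 0.17 ± 0.48, and AU020206, Pld3 and Tspan13 did not pass the filter. Selplg was at 0.80 ± 0.27, Itgb7 at 0.47 ± 0.39, Junb at 0.51 ± 0.30 and Il2rb at 0.15 ± 0.27. Lck was at -0.75 ± 0.47, Gzma at -0.43 ± 0.27, Fcer1g at -0.42 ± 0.29, Eno1 at -0.15 ± 0.45 and B2m at -0.09 ± 0.26.

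Other cell markers in NK cells overlapped between tissues for neutrophils (55.5 to 2297 CPM in cores, 23.0 to 2901 CPM in margins), B cells (187 to 378 against 178 to 325 CPM, Ms4a1 at 0), lung epithelium and stroma (0 to 207 against 45.9 to 418 CPM), erythroid cells (0 to 453 against 0 to 444 CPM) and tumor cells (at most 43.1 CPM). Dendritic cell and MHC class II markers (421 to 838 against 275 to 621 CPM, Flt3 and Cd209a at 0) and monocyte and macrophage markers (234 to 1084 against 178 to 1043 CPM) were higher in the core in 4 of 4 mice. The part of these cells in the NK cell values was not tested.

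Whether T and NK cells differed in their core minus margin change was tested in the 4 mice with enough cells of both, with a tissue by lineage term. None of 2105 genes (0%) passed in edgeR (0 called), with 78 (3.71%) at an unadjusted p under 0.05. The 5 with the smallest unadjusted p that differed the same way in every mouse were Klf2, Dock8, Il7r, Cd7 and Tspan13 (edgeR adjusted p = 0.914 for each). Without mouse 17 edgeR again called 0, with 58 at an unadjusted p under 0.05. Klf2 was at -0.52 in T cells of all 5 mice and at 1.04 in NK cells, and differed by -1.57 ± 0.43 (T minus NK) in the 4 shared mice. Cd7 was at 0.60 in T cells and -1.04 in NK cells and differed by 1.65 ± 0.51. Dock8, Il7r and Tspan13 differed by -2.17 ± 0.62, -2.04 ± 0.61 and -1.77 ± 0.56.

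With T and NK cells summed in 6 mice, 1 of 1364 genes (0.0733%) passed in edgeR, Cd8a, with 69 (5.06%) at an unadjusted p under 0.05. The sum holds the T cells tested above, so this is not a separate result. T cells numbered 337, 40, 117, 71, 27 and 291 in the cores of mice 17, 26, 28, 31, 32 and 36. All lymphocytes there numbered 433, 50, 166, 99, 52 and 347. The margins held 173, 20, 57, 46, 6 and 176 T cells among 289, 24, 83, 75, 10 and 205 lymphocytes. The part of the T cell share was not tested. DESeq2 called 3 genes, Cd8a, Pld3 and Gm6637. With no block for mouse edgeR called 0, with 15 at an unadjusted p under 0.05, and it called 4 without mouse 26, 31 or 32 and 2 without mouse 36, Cd8a among them each time. Without mouse 17 it called 1, Cd8a, with 43 at an unadjusted p under 0.05. Cd8a stood at 1209, 813, 377, 583, 227 and 786 CPM in the cores of mice 17, 26, 28, 31, 32 and 36 and at 535, 117, 150, 146, 0 and 416 CPM in the margins, higher in the core in 6 of 6 mice as counted. The 0 in mouse 32 is 0 of 6481 UMIs, which allows up to 463 CPM, so the direction in that mouse is not settled. The log2 fold change of Cd8a was 1.34 ± 0.24 (edgeR adjusted p = 0.00101), and it kept its call without mouse 17, at 1.51 (adjusted p = 0.0278). The margin of mouse 32 held 10 lymphocytes.

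The next genes that moved the same way in all 6 mice were Pld3, Isg20, Gm6637, Aldoa and Txnip. Pld3 was at 1.40 ± 0.34 (adjusted p = 0.0540) and Isg20, an interferon-induced exonuclease, at 1.38 ± 0.34 (adjusted p = 0.0559). Isg20 stood at 685, 167, 428, 142.5, 151.5 and 232 CPM in cores and 122, 0, 137, 91.5, 0 and 227 CPM in margins, so that mouse 36 had nearly equal levels. The margins of mice 26 and 32 held 0 UMIs of Isg20 and of Pld3, which allows up to 176 and 463 CPM, above the core levels of these mice for both genes, so 4 of the 6 directions rest on counts in both tissues. Gm6637, annotated as a processed pseudogene and therefore uncertain where its parent gene shares reads, was at -1.13 ± 0.29 (adjusted p = 0.0738). Aldoa, a glycolytic enzyme, was at 0.72 ± 0.23 and Txnip, an inhibitor of glucose uptake, at -0.82 ± 0.27, neither past the threshold.

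Within CD8 Gzmk cells, the most numerous CD8 state, 0 of 1711 genes (0%) passed in edgeR over 4 mice, with 50 (2.92%) at an unadjusted p under 0.05. DESeq2 called 0, with 34. Without mouse 17 edgeR called 0, with 19. Cores held 16 to 130 and margins 18 to 73 such cells. Cd8a stood at 2039, 565, 627 and 846 CPM in the cores of mice 17, 28, 31 and 36 and at 1081, 292, 253 and 590 CPM in the margins, a log2 fold change of 0.77 ± 0.30 in the same direction in 4 of 4 mice (edgeR adjusted p = 0.995). Ccl4 was at 1.14 ± 0.57, and S100a8 did not pass the filter. The 5 genes with the smallest unadjusted p that moved the same way in every mouse were Txnip, at -1.37 ± 0.40, Tmem50a at -1.09 ± 0.32, Tnfrsf18 (GITR, a costimulatory receptor) at 1.29 ± 0.40, Cd160 at -2.03 ± 0.71 and Rheb, an activator of mTOR, at -1.73 ± 0.63 (edgeR adjusted p = 0.995 for each). The core of mouse 31 held 0 UMIs of Rheb, which allows up to 269 CPM, above its margin level of 168 CPM.

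Tnfrsf18 stood at 456, 519, 627 and 485 CPM in CD8 Gzmk cells of the cores and 127, 292, 168 and 253 CPM in the margins. The groups did not overlap, but the gene had been named for moving the same way in every mouse. How many of all genes in these cells had no overlap was not counted, so this separation cannot be judged. Of all genes tested in these cells, 7.54% were higher and 4.68% lower in the core in every mouse. Among the lists no gene was called. Of the MHC class I and interferon-gamma genes, 17 of 19 that passed lay above 0 (median 0.20), as did 17 of 23 type I interferon genes (median 0.37) and 9 of 10 cytotoxic granule genes (median 0.27), beside a median of -0.01 over all genes. Of 7 glycolysis and hypoxia genes, Aldoa, Eno1, Ldha and Mif were higher in every mouse. Without mouse 17 the type I interferon list was at -0.10 (18 genes, 7 above 0), the MHC list at 0.15 (13 genes), the cytotoxic list at 0.37 (6 genes) and Tnfrsf18 at 1.14 ± 0.51.

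Within CD4 Lef1 cells, 0 of 1554 genes (0%) passed in edgeR over 3 mice (17, 28 and 36), with 75 (4.83%) at an unadjusted p under 0.05. DESeq2 called 0, with 37. Without mouse 17 edgeR called 0, with 20. The 5 named genes were Gm42418 at 0.96 ± 0.28, Rpl37rt at -1.22 ± 0.36, Gm26917 at 0.92 ± 0.28, Btla at -4.83 ± 1.53 and Sdf4, a calcium-binding Golgi protein, at 1.66 ± 0.54 (edgeR adjusted p from 0.532 to 0.551). Btla, an inhibitory receptor of naive T cells, had 1, 0 and 0 UMIs in the cores of mice 17, 28 and 36 and 15, 3 and 9 UMIs in the margins, so its fitted fold change is not a bound. Gm42418 and Gm26917 are neighboring noncoding loci on chromosome 17 that overlap ribosomal RNA sequence, and Rpl37rt is annotated as a pseudogene of a ribosomal protein gene, so reads of these 3 may come from other copies. S100a8 was at -1.34 ± 0.46 (edgeR adjusted p = 0.551) and Ccl4 at 1.65 ± 0.77 (edgeR adjusted p = 0.870).

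Of all CD4 Lef1 genes tested, 13.4% were higher and 14.5% lower in the core in every mouse, beside a median log2 fold change of 0.00. Of the type I interferon response genes 17 of 32 passed the filter and 13 lay above 0, with a median of 1.15. Of these, 6 were higher in all 3 mice, among them Isg20 at 2.47 ± 0.83, Usp18, Rtp4, Slfn5 and Parp14, and Zbp1 and Slfn1 were lower in all 3. None was called (lowest edgeR adjusted p in this list 0.551). All 11 trafficking genes that passed lay above 0 (median 0.57). Of 11 naive and central memory genes, 3 were lower in every mouse, among them Lef1 and S1pr1 (median -0.47). Without mouse 17, which leaves 2 mice, the type I interferon list was at -0.12 (7 genes, 2 above 0), the trafficking list at 0.60 (5 genes) and the naive list at -0.30 (9 genes).

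Within NK Ncr1 cells, 0 of 531 genes (0%) passed in edgeR over 4 mice, with 35 (6.59%) at an unadjusted p under 0.05. DESeq2 called 0, with 19. Without mouse 17 edgeR called 0, with 25. Ncr1 stood at 543, 553, 582 and 967 CPM in the cores of mice 17, 28, 31 and 36 and at 964, 1077, 1274 and 1285 CPM in the margins, lower in the core in 4 of 4 mice, at -0.80 ± 0.29 (edgeR adjusted p = 0.467). The core of mouse 36 lay within the range of the margins. The 5 named genes were Cd7, a T and NK cell surface protein, at -1.29 ± 0.40, Txk, a Tec family kinase, at 1.18 ± 0.38, Jun at 1.29 ± 0.43, the tetraspanin Cd53 at 0.93 ± 0.31 and the survival gene Bcl2 at 0.95 ± 0.32 (edgeR adjusted p = 0.467 for each).

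Bcl2 stood at 1020, 784, 1429 and 1143 CPM in cores and 764, 513, 372 and 455 CPM in margins. The groups did not overlap, but this gene too had been named for moving the same way in every mouse. Here too the share of all genes without overlap was not counted, so this separation cannot be judged. Of all NK Ncr1 genes tested, 6.21% were higher and 8.29% lower in the core in every mouse. Of 9 immediate early and stress genes 8 lay above 0 (median 0.44), and Fos, Jun and Btg2 were higher in every mouse. Of 15 NK receptor genes 8 lay above 0 (median 0.03), Klrk1 was higher and Ncr1 lower in every mouse. Without mouse 17 these lists were at 0.66 (9 genes) and -0.08 (12 genes), and Bcl2 was at 1.36 ± 0.41. No list held a called gene.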

How the data were processed

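Libraries were SPID-seq, in which single sorted cells in the wells of 384-well plates give 3′ mRNA ends tagged with a unique molecular identifier (UMI). The authors deposited raw UMI counts per gene and well, made by mapping reads with HISAT to mm10 (bcl2fastq 2.15.0.4 in the submitters' notes), dropping reads with several mapping positions, assigning the rest to exons and collapsing identical UMIs. A deposited annotation, made by the authors' clustering and manual tuning, names the subpopulation of each retained cell, and the shallowest annotated cell held 500 UMIs. Cells were not clustered again. ERCC spike-in rows held 0 UMIs in the annotated cells of the 73 plates read and were left out. No well identifier occurred on more than 1 plate (0 shared). Doublets had been gated out during sorting, and no doublet caller was run.

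For each population, UMIs were added up per tissue and mouse. Sums of at least 10 cells in both tissues of a mouse were compared with edgeR 4.0.16 under R 4.3.3 (filterByExpr by tissue, TMM normalization, mouse as a block, quasi-likelihood F test, Benjamini-Hochberg adjustment over all genes tested, calls at an adjusted p under 0.05). The block rests on the mouse named in the labels. The deviations of the core and the margin of a mouse from their tissue means correlated in every pair, from 0.126 to 0.664 in T cells and from 0.191 to 0.460 in NK cells. CPM denotes UMIs per 1000000 UMIs of a sum. Standard errors are the absolute log2 fold change over the square root of F. The fit was tested on simulated data drawn from the T cell sums (1859 genes). Among changed genes that passed the filter, it called 59.8% of 82 changes of 1 and 100% of 80 changes of 2 on the log2 scale. It also called 3 genes that had not been changed. Changed genes removed by the filter are not in these shares, here and for NK cells. For NK cells (1062 genes) these shares were 35.6% of 87 and 96.1% of 77, with 1 unchanged gene called. The simulation changed many more genes than were called in the data. The adjustment is then less strict, so these shares may be too high for the data.

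Genes were named by a rule: called genes (up to 10 in each direction), the 5 with the smallest unadjusted p among genes that moved the same way in every mouse where fewer than 5 were called, and the 2 members of highest mean CPM of each of 13 gene lists. For the 3 smaller populations some lists are given by counts, chosen after their values were seen, and the lists of the summed lineages, which hold the same cells, are not given, so most members that the rule names there are not printed. Other list members are named as those that moved the same way in every mouse, or were chosen after their values were seen. The comparison, the populations and the lists were chosen with earlier results of these data known. Alternatives were no block, all samples, RLE size factors, DESeq2 1.42.0, other filters on genes and cells, equal depth, other T cell subsets and each mouse left out. Gene positions come from GENCODE vM21 on mm10. Many list members enter only the counts and medians, and some are not reported here.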

Additional observations from a re-analysis of the deposited data

Results flagged for a closer look

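Dixon's test for a sample far from its group was run on 120 groups of CPM values, the core and margin levels of the named genes in T cells (5 mice) and NK cells (4 mice), and marked 11 samples, where chance alone marks about 1 in 20 groups. In T cells, mouse 26 had the highest core level of Dapl1, at 116 CPM, and mouse 31 the lowest margin level of Dapl1, at 62.1 CPM. Klf2 was highest in the margin of mouse 31, at 932 CPM. Srgn was lowest in the margin of mouse 26, at 354 CPM. B2m was lowest in the core of mouse 31, at 2740 CPM in T cells and 2620 CPM in NK cells. In NK cells, mouse 31 had the highest margin level of Pld3, at 178 CPM, and the highest level of Eno1 in both tissues, at 1029 CPM in the core and 1201 CPM in the margin. H2-D1 was highest in the margin of mouse 36, at 4201 CPM. Tubb5 was lowest in the margin of mouse 28, at 139 CPM, which is 3 UMIs. Of the 11 samples, 7 came from mouse 31.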

How the results depend on the processing

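Counts of called genes were small and changed with most settings. In T cells the 3 calls became 0 with no replicate block, with all cores and margins and no replicate block, with cells of at least 1000 UMIs, with sums thinned to equal depth, with equal cells of each subpopulation, and, both chosen after seeing the data, with CD8 cells only and with CD4 and Treg cells only. They became 1 with RLE size factors and 1 without CD8 Lag3 cells (chosen after seeing the data), in both cases S100a8. Leaving out each mouse gave 0 to 5 calls, 0 without mouse 26 and 5 without mouse 36. With T and NK cells summed the 1 call became 0 with no replicate block, 0 with all samples and no replicate block, 0 with cells of at least 1000 UMIs, 3 with DESeq2, 3 with a total of 10 UMIs as the only filter, 4 with RLE size factors and 4 with at least 20 cells. Leaving out each mouse gave 1 to 4 calls, and Cd8a was among them each time. In NK cells the 0 calls became 1 with the total of 10 UMIs, and 0 to 1 without each mouse, Ly6a both times (without mouse 31). In CD8 Gzmk cells they became 2 with cells of at least 1000 UMIs (2 mice) and in CD4 Lef1 cells 2 with at least 5 cells. No other setting moved a count by more than 1.5 times, and the difference between T and NK cells stayed at 0 without each mouse. The cause of these changes was not tested.

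No called gene changed direction under any setting in which it passed the filter on low counts. S100a8 did not pass it without mouse 17, so its direction was not fitted there. Among the 31 named genes in T cells, 32 of 533 refits had the other sign, in 11 genes, and among the 29 in NK cells 34 of 295, in 15 genes, none of them called. The restriction to mice with core and margin in the same sequencing batch left the samples as they were, as did the minimum of 20 cells in T cells, of 5 or 20 in NK and NK Ncr1 cells and of 5 in both lineages summed, so these were not refitted. The smallest sums held 11167 UMIs in CD8 Gzmk cells and 11893 in CD4 Lef1 cells, where 1 UMI is worth 89.5 and 84.1 CPM, which limits what can be seen for genes of low level.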
